A study of Mus musculus with 23 samples.

Results

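Genes for antioxidant defence, the thioredoxin and glutathione systems, metal binding and iron storage were followed through RNA sequencing of male mouse hearts. The 41 members were taken from the deposited table of 46077 genes by their symbols alone, and all 41 were found and passed the filter on low values in the fits reported (34 to 40 did in some alternatives). By role they are 4 superoxide dismutase and catalase genes, 5 glutathione peroxidases, 7 peroxiredoxin and sulfiredoxin genes and 5 thioredoxin system genes. The others are 3 glutaredoxins, 5 genes of glutathione synthesis, recycling and NADPH, 4 glutathione transferases, 4 genes of the NRF2 group, 2 ferritins and 2 metallothioneins. The series title concerns pannexin 1 channels in the metabolism of cardiomyocytes and in neutrophil recruitment during heart failure without ischemia.

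All mice carried floxed Panx1, which encodes the pannexin 1 channel. Panx1fl/fl mice are called wild-type here, as in the sample titles, and Panx1myhc6 mice are called knockout. That name refers to the promoter of Myh6, which is active in cardiomyocytes, so that other heart cells would keep the gene. Cardiomyocyte preparations came from wild-type (n = 3, libraries PNXM657, PNXM661 and PNXM649) and knockout mice (n = 3, PNXM658, PNXM664 and PNXM663) given saline. After 14 days of isoproterenol at 15 mg/kg/day, a beta-adrenergic agonist used to stress the heart, they came from wild-type (n = 4, PNXM644, PNXM647, PNXM645 and PNXM648) and knockout mice (n = 4, PNXM654, PNXM656, PNXM655 and PNXM646). Whole hearts after isoproterenol were labelled wild-type (n = 5, PNXM227, PNXM238, PNXM240, PNXM241 and PNXM230) or knockout (n = 4, PNXM199, PNXM229, PNXM239 and PNXM242). The series text says untreated where the sample labels say saline, and ages are not given in the labels. Lists of library values keep the library order given here.

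Superoxide dismutases turn superoxide into hydrogen peroxide, which catalase, glutathione peroxidases and peroxiredoxins remove. Peroxidases are recharged by glutathione or thioredoxin, whose own reductases draw on NADPH, and in mitochondria Nnt regenerates NADPH from NADH with the proton gradient. The transcription factor NRF2 (Nfe2l2), held down by KEAP1, drives many of these genes, while iron controls ferritin mainly through translation and MTF1 drives the metallothioneins. Heart muscle is rich in mitochondria, and its mitochondrial enzymes Sod2, Prdx3, Txn2 and Nnt are known as main defences there.

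The iron-responsive elements of the ferritin messages are shown because the ferritin pair carries both the highest level in the set and one of its differences between preparations. They lie in the 5′ untranslated region, at transcript bases 88 to 115 of Fth1-201 (chromosome 19) and 79 to 106 of Ftl1-201 (chromosome 7) in GENCODE M21. Capitals mark the loop bases that iron regulatory proteins bind.
Fth1: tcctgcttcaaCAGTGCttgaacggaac
Ftl1: tcttgcttcaaCAGTGTttgaacggaac
These elements were equal at 26 of 28 bases. They act on translation of the message in textbook accounts, which FPKM values do not measure.

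The 250 bases before the start sites of the metallothioneins are shown because both genes were lower in cells than in hearts. Promoters are from RefSeq (build GRCm38.p6), on the + strand. Capitals mark the core of the metal response element, searched on both strands as TGCGCNC or TGCACNC, so that a match on the other strand shows as its reverse complement.
Mt1, chr8:94178839-94179088: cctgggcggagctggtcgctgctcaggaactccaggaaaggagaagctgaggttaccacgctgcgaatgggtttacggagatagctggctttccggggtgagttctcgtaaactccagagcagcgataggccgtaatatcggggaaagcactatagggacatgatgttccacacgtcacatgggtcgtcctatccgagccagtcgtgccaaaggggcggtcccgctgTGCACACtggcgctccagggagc
Mt2, chr8:94172368-94172617: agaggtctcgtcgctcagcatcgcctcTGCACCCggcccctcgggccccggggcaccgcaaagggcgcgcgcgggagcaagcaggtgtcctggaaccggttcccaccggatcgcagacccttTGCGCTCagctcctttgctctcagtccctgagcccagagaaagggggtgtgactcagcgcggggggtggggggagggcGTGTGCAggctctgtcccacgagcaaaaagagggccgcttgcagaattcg
Mt1 held 1 core and Mt2 held 3 in this window. Bases after the start sites, or more than 250 before them, were not searched, and cores there would be missed. The counts therefore do not rank these genes by their metal response elements. A core of this kind was found in 7032 of 32851 promoters (21.4%) and in 12 of the 43 promoters listed for 34 members. These belong to 10 genes (Gclm, Glrx, Gpx7, Gstm1, Mt1, Mt2, Prdx4, Srxn1, Txnip and Txnrd2).

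The antioxidant response element, through which NRF2 acts, was searched by its core TGACNNNGC on both strands. It was present in 3338 of the 32851 promoters (10.2%) and in 7 of the 43 member promoters, of 7 genes (Gclm, Mgst1, Mt2, Nfe2l2, Prdx1, Sod1 and Txnrd1). Windows around the core in 3 members known as NRF2 targets are shown, on the + strand of GRCm38.p6 with the core, here on the other strand, in capitals.
Txnrd1, chr10:82859094-82859142: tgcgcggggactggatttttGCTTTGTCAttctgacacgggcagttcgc
Prdx1, chr4:116685446-116685494: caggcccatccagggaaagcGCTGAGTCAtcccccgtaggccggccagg
Gclm, chr3:122245403-122245451: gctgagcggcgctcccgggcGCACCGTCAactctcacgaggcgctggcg
In Gclm a match of the metal response core, 138 to 132 bases before the start, overlaps this core at 134 to 126. Of these genes, Txnrd1 and Prdx1 were called lower in cells than in hearts in both genotypes and Gclm in neither. Hmox1, Gclc, Gsta4, Gsr, Prdx6, Sod3 and Nnt had no promoter entry. A match of letters is a description and was not tested as a site.

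Libraries held 21.03 to 39.6 M reads assigned to genes. Mitochondrial transcripts took 46.8 to 80.0% of them in cardiomyocyte libraries and 16.7 to 25.4% in hearts, which left 4.85 to 16.96 M other reads in a cardiomyocyte library and 22.4 to 30.6 M in a heart. Panx1 averaged 2.21 ± 0.663 (SD, n = 3) and 1.67 ± 0.361 FPKM (SD, n = 3) in wild-type and knockout saline cells, and 1.55 ± 0.282 (SD, n = 4) and 1.04 ± 0.123 FPKM (SD, n = 4) after isoproterenol. In hearts Panx1 ran opposite to the labels, since it was 0.412 ± 0.0657 FPKM (SD, n = 5) in those labelled wild-type and higher, 0.651 ± 0.189 FPKM (SD, n = 4), in those labelled knockout. The summed level of 8 cardiomyocyte markers was 1018 to 9115 FPKM in cardiomyocyte libraries and 7213 to 14498 FPKM in hearts, so the isolated preparations held less of it. The sums of other cell types were higher in every cardiomyocyte library than in every heart for endothelial (181 to 474 against 117 to 161 FPKM), macrophage (329 to 1956 against 113 to 266 FPKM), erythroid (5580 to 69900.1 against 46.1 to 588 FPKM) and neutrophil markers (25.2 to 2205 against 0.347 to 2.68 FPKM). Not all lists went this way. Smooth muscle and pericyte sums spanned 87.4 to 199 FPKM in cardiomyocyte libraries and reached higher, 158 to 336 FPKM, in hearts. Adipocyte (61.7 to 173 against 58.3 to 349.5 FPKM) and fibroblast sums (362 to 822 against 198 to 443 FPKM) also overlapped. No cardiomyocyte, endothelial or macrophage marker was at 0 in any library, while 1 or 2 of the 7 neutrophil markers were at 0 in every heart. In bulk samples like these, fewer cells of a type and less RNA per cell cannot be told apart. Below, "cells" means these preparations, whose makeup differs from that of the hearts in this way.

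**Figure D1:**
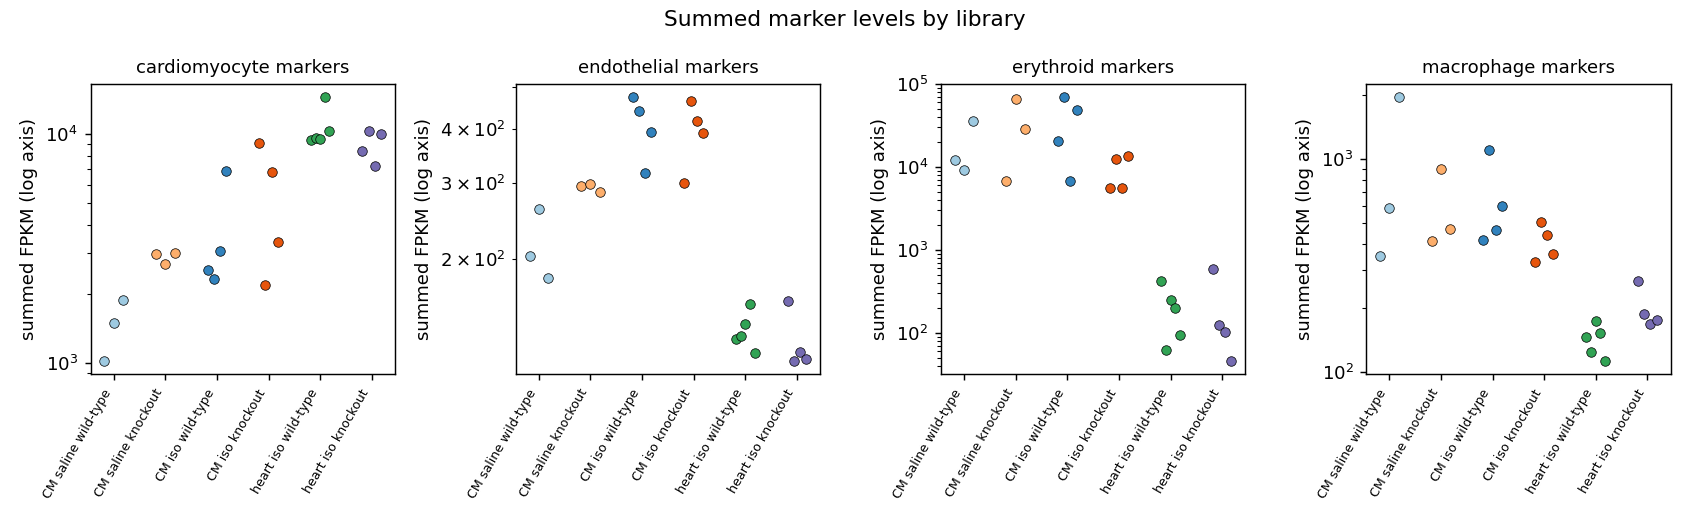
Summed FPKM of the cardiomyocyte, endothelial, erythroid and macrophage marker lists (log axes) in each library, by group, where CM is a cardiomyocyte preparation and iso is isoproterenol. Cardiomyocyte libraries lie above all hearts for endothelial, erythroid and macrophage markers, and only PNXM654 of them exceeds 7213 FPKM for cardiomyocyte markers, the lowest heart value.

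FPKM divides reads by gene length and library size, so that levels can be set side by side between genes. Group means follow the order wild-type saline, knockout saline, wild-type isoproterenol and knockout isoproterenol cells, then hearts labelled wild-type and knockout, each with its SD (n = 3, 3, 4, 4, 5 and 4). Fth1, the heavy ferritin chain that oxidizes iron for storage, had the highest mean of the set in every group. It averaged 533 ± 219, 747 ± 102, 932 ± 288 and 1097 ± 551 FPKM in the 4 cardiomyocyte groups and 1138 ± 209 and 1065 ± 156 FPKM in the hearts. Gss, the second enzyme of glutathione synthesis, and Txnrd2, the mitochondrial thioredoxin reductase, were the lowest, at 0.826 to 1.57 and 0.444 to 1.98 FPKM in group means. Exons of 10 members overlap another gene in GENCODE M21 (Ftl1, Gclm, Gss, Keap1, Mt2, Nnt, Prdx2, Prdx5, Txnip and Txnrd2), on the opposite strand for 9. The partners include coding genes on the other strand (Acss2 for Gss, Junb and Rnaseh2a for Prdx2, Trmt112 for Prdx5). Whether counting used the strand is not stated, so reads of such pairs cannot be told apart. Txnrd2 rested on 1 to 165 reads in a cardiomyocyte library and entered the comparison of preparations through the hearts.

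Among the enzymes that act first, Sod2 (chromosome 17, 13007839 to 13018119) encodes the manganese superoxide dismutase of mitochondria. It had 10.4, 13.2 and 19.9 FPKM in wild-type and 20.5, 24.7 and 20.7 FPKM in knockout saline cells. After isoproterenol it had 19.6, 11.7, 22.6 and 33.2 FPKM in wild-type and 50.7, 15.2, 30.5 and 26.0 FPKM in knockout cells. Hearts had 92.9, 92.2, 94.8, 105 and 98.4 FPKM when labelled wild-type and 73.7, 82.3, 66.5 and 95.1 FPKM when labelled knockout. All 14 cardiomyocyte libraries lay below all 9 hearts, and within the cells PNXM654 was highest. Cat (chromosome 2, 103453849 to 103485160), which encodes catalase, had 17.5, 17.4 and 28.4 FPKM in wild-type and 18.2, 26.1 and 21.1 FPKM in knockout saline cells and, after isoproterenol, 19.0, 20.3, 18.4 and 19.3 FPKM in wild-type and 27.0, 15.7, 21.02 and 20.8 FPKM in knockout cells. Hearts had 59.9, 48.7, 50.4, 57.6 and 51.4 FPKM when labelled wild-type and 46.6, 58.0, 40.0 and 54.4 FPKM when labelled knockout. Here too every cell library lay below every heart, and the 4 cardiomyocyte groups had like means of 21.1, 21.8, 19.3 and 21.1 FPKM. Sod1, the cytosolic copper-zinc enzyme, averaged 71.7 ± 18.9, 92.3 ± 0.949, 112 ± 33.1 and 135 ± 43.9 FPKM in the 4 cardiomyocyte groups and 179 ± 34.6 and 170.0 ± 31.5 FPKM in the hearts. Sod3, the secreted form, averaged 10.5 ± 3.82, 14.2 ± 3.51, 17.9 ± 3.30 and 13.7 ± 1.68 FPKM in the 4 cardiomyocyte groups and 9.35 ± 2.46 and 10.2 ± 3.56 FPKM in the hearts. Sod3 was thus the only gene of these 4 whose group means were higher in cells than in hearts.

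Glutathione peroxidases reduce peroxides with glutathione, and their patterns differed from gene to gene. Gpx1 (chromosome 9, 108338903 to 108340343), the cytosolic form that is also abundant in red blood cells, had 50.8, 68.1 and 202 FPKM in wild-type and 51.3, 138 and 103 FPKM in knockout saline cells. The isoproterenol values were 93.4, 279, 66.8 and 191 FPKM in wild-type and 89.6, 79.1, 82.0 and 65.3 FPKM in knockout cells. Hearts had 36.5, 39.1, 40.7, 51.8 and 32.1 FPKM when labelled wild-type and 78.1, 49.2, 41.96 and 46.0 FPKM when labelled knockout. Gpx1 was highest in PNXM647, PNXM649, PNXM648 and PNXM664. The same 4 libraries had the highest erythroid marker sums of the 23, at 69900.1, 35328, 48274 and 65701 FPKM, and the part of red blood cells was not tested. Gpx4 (chromosome 10, 80047166 to 80056439), which reduces lipid peroxides in membranes, had 39.7, 46.8 and 69.0 FPKM in wild-type and 103, 101 and 85.7 FPKM in knockout saline cells. After isoproterenol it had 107, 146, 85.1 and 326 FPKM in wild-type and 451, 73.7, 282 and 108 FPKM in knockout cells, so that PNXM654, PNXM648 and PNXM655 stood far above the other cells. Hearts had 195, 160.0, 167, 253 and 178 FPKM when labelled wild-type and 247, 209, 130.1 and 215 FPKM when labelled knockout, a range that those 3 libraries exceed.

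Gpx3, the secreted form, had 91.3, 138 and 118 FPKM in wild-type and 89.3, 154 and 232 FPKM in knockout saline cells. The isoproterenol values were 253, 383, 158 and 228 FPKM in wild-type and 176, 113, 144 and 137 FPKM in knockout cells. Hearts had 153, 140.4, 113, 126 and 180.5 FPKM when labelled wild-type and 601, 123, 391 and 93.0 FPKM when labelled knockout, where PNXM199 and PNXM239 stood apart from the others. In these same hearts the summed adipocyte markers were 349.5 and 248 FPKM, against 58.3 to 119 FPKM in hearts labelled wild-type, and their part in the Gpx3 level was not tested. Gpx7 and Gpx8 reside in the endoplasmic reticulum. Gpx7 averaged 5.09 ± 1.96, 6.63 ± 1.98, 9.64 ± 2.41 and 7.995 ± 1.86 FPKM in the 4 cardiomyocyte groups and 4.16 ± 0.283 and 5.24 ± 1.68 FPKM in the hearts. Gpx8 averaged 9.84 ± 2.63, 9.42 ± 1.63, 11.01 ± 1.32 and 10.04 ± 0.627 FPKM in the 4 cardiomyocyte groups and 12.1 ± 1.33 and 14.1 ± 2.79 FPKM in the hearts, the narrower range of this pair.

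Peroxiredoxins reduce peroxides with thioredoxin, each in its own compartment. Prdx3, the mitochondrial form, averaged 22.0 ± 5.63, 33.1 ± 3.96, 37.6 ± 17.7 and 62.4 ± 39.7 FPKM in the 4 cardiomyocyte groups and 123 ± 17.1 and 104 ± 16.3 FPKM in the hearts. Prdx5, found in mitochondria, peroxisomes and cytosol, averaged 26.3 ± 11.5, 33.9 ± 1.34, 52.3 ± 27.4 and 62.9 ± 38.0 FPKM in the 4 cardiomyocyte groups and 98.8 ± 22.0 and 88.0 ± 16.9 FPKM in the hearts. Both were lowest in wild-type saline cells and highest in the hearts labelled wild-type. Cytosolic Prdx1 averaged 22.5 ± 5.03, 24.9 ± 3.84, 27.5 ± 3.51 and 33.8 ± 10.97 FPKM in the 4 cardiomyocyte groups and 52.0 ± 8.66 and 51.9 ± 10.03 FPKM in the hearts. Prdx2, also cytosolic and abundant in red blood cells, averaged 23.9 ± 11.01, 30.0 ± 5.81, 44.8 ± 21.1 and 53.3 ± 31.1 FPKM in the 4 cardiomyocyte groups and 69.3 ± 13.04 and 66.7 ± 14.6 FPKM in the hearts. Prdx6, which uses glutathione, averaged 9.83 ± 3.33, 11.1 ± 1.90, 13.2 ± 3.36 and 15.5 ± 7.49 FPKM in the 4 cardiomyocyte groups and 23.5 ± 3.39 and 21.6 ± 3.26 FPKM in the hearts. Prdx4, of the endoplasmic reticulum, averaged 5.001 ± 1.84, 5.73 ± 2.04, 7.96 ± 1.26 and 7.48 ± 1.35 FPKM in the 4 cardiomyocyte groups and 4.67 ± 0.423 and 5.63 ± 1.91 FPKM in the hearts, and was the only peroxiredoxin whose heart means were not above all cell means. Srxn1, which repairs overoxidized peroxiredoxins, averaged 4.05 ± 0.942, 4.96 ± 1.08, 5.37 ± 0.424 and 5.41 ± 1.00 FPKM in the 4 cardiomyocyte groups and 8.49 ± 2.27 and 8.88 ± 2.51 FPKM in the hearts.

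Txn1 and Txn2 encode the cytosolic and the mitochondrial thioredoxin. Txn1 averaged 30.8 ± 8.14, 30.2 ± 5.89, 32.4 ± 4.58 and 28.1 ± 1.86 FPKM in the 4 cardiomyocyte groups and 36.8 ± 7.40 and 34.2 ± 5.28 FPKM in the hearts. Txn2 averaged 9.27 ± 3.12, 13.4 ± 0.588, 18.4 ± 8.39 and 23.4 ± 14.3 FPKM in the 4 cardiomyocyte groups and 35.9 ± 6.54 and 32.9 ± 6.28 FPKM in the hearts, with a wider span among the cells than Txn1, 5.57-fold against 1.73-fold between the lowest and the highest library. Txnrd1, the cytosolic thioredoxin reductase and an NRF2 target, had the narrowest span of the set among the 14 cardiomyocyte libraries, 1.40-fold. It had 9.19, 7.94 and 8.71 FPKM in wild-type and 8.58, 7.13 and 6.76 FPKM in knockout saline cells and, after isoproterenol, 7.32, 6.58, 8.40 and 6.60 FPKM in wild-type and 8.55, 8.24, 7.81 and 7.58 FPKM in knockout cells. Hearts had 12.7, 12.7, 13.6, 14.4 and 12.8 FPKM when labelled wild-type and 9.13, 15.8, 11.9 and 15.6 FPKM when labelled knockout. Every isoproterenol cell library lay below every heart. Txnip, which binds thioredoxin and limits glucose uptake, had 99.6, 113 and 101 FPKM in wild-type and 73.3, 116 and 156 FPKM in knockout saline cells. After isoproterenol it had 184, 122, 100.2 and 145 FPKM in wild-type and 160.2, 179.5, 159 and 174 FPKM in knockout cells. Hearts had 170.5, 54.1, 45.4, 54.0 and 61.1 FPKM when labelled wild-type and 84.7, 102, 61.5 and 63.3 FPKM when labelled knockout, and PNXM227 stood apart in this group.

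Glutaredoxins use glutathione to reduce disulfides, and Glrx3 and Glrx5 serve iron-sulfur cluster handling. Glrx5, in mitochondria, averaged 28.3 ± 15.8, 39.3 ± 10.1, 50.0 ± 21.9 and 65.5 ± 38.3 FPKM in the 4 cardiomyocyte groups and 81.7 ± 16.4 and 76.3 ± 11.4 FPKM in the hearts. Glrx3 averaged 14.7 ± 4.08, 21.4 ± 3.78, 25.5 ± 8.52 and 30.6 ± 12.1 FPKM in the 4 cardiomyocyte groups and 44.0 ± 6.76 and 41.3 ± 6.82 FPKM in the hearts. Cytosolic Glrx averaged 4.78 ± 1.63, 5.31 ± 0.754, 8.52 ± 3.91 and 6.77 ± 2.31 FPKM in the 4 cardiomyocyte groups and 9.51 ± 1.25 and 9.09 ± 1.05 FPKM in the hearts. All 3 means were higher in the hearts than in any cell group. Gclc, the catalytic subunit of the rate-limiting step of glutathione synthesis, had 4.75, 4.50 and 4.66 FPKM in wild-type and 3.60, 3.34 and 4.05 FPKM in knockout saline cells, and after isoproterenol 4.23, 3.34, 3.36 and 2.55 FPKM in wild-type and 2.68, 3.93, 2.71 and 2.82 FPKM in knockout cells. It was highest in the wild-type saline cells, whose 3 libraries lay above all others. Its partner Gclm, the modifier subunit, averaged 3.13 ± 1.498, 3.25 ± 0.732, 3.39 ± 0.823 and 2.64 ± 0.232 FPKM in the 4 cardiomyocyte groups and 3.54 ± 0.816 and 3.78 ± 0.763 FPKM in the hearts. Gsr, which reduces oxidized glutathione, averaged 8.42 ± 1.80, 7.39 ± 2.13, 10.5 ± 5.32 and 7.07 ± 2.52 FPKM in the 4 cardiomyocyte groups and 6.05 ± 0.355 and 5.57 ± 0.633 FPKM in the hearts.

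Nnt (chromosome 13, 119335448 to 119408997), the mitochondrial transhydrogenase, had 4.61, 5.61 and 7.73 FPKM in wild-type and 8.33, 8.64 and 8.43 FPKM in knockout saline cells. The isoproterenol values were 6.98, 5.56, 8.96 and 11.6 FPKM in wild-type and 21.9, 5.58, 14.4 and 10.9 FPKM in knockout cells. Hearts had 46.6, 48.4, 45.8, 52.5 and 75.8 FPKM when labelled wild-type and 41.2, 42.9, 36.1 and 47.6 FPKM when labelled knockout. Every cell library lay below every heart, and the lowest heart value of 36.1 FPKM was above the highest cell value of 21.9 FPKM. Mgst3 (chromosome 1, 167371966 to 167393841), a microsomal glutathione transferase with peroxidase activity, had 11.1, 14.1 and 18.6 FPKM in wild-type and 39.3, 26.5 and 22.7 FPKM in knockout saline cells. After isoproterenol it had 32.4, 54.5, 31.1 and 136 FPKM in wild-type and 200.5, 22.9, 136 and 37.0 FPKM in knockout cells. Hearts had 139, 115, 119, 188 and 137 FPKM when labelled wild-type and 153, 125, 85.9 and 123 FPKM when labelled knockout. Its span of 18.04-fold among the cells was the widest of the members apart from Txnrd2, and the 3 highest cell libraries were again PNXM654, PNXM648 and PNXM655. The other transferases conjugate glutathione to reactive compounds. Gstm1 averaged 64.4 ± 21.3, 83.9 ± 25.5, 105 ± 18.03 and 81.6 ± 11.6 FPKM in the 4 cardiomyocyte groups and 85.9 ± 11.5 and 71.1 ± 14.1 FPKM in the hearts. Gsta4, which handles lipid aldehydes, averaged 13.6 ± 6.54, 12.7 ± 2.64, 17.6 ± 4.63 and 18.1 ± 9.03 FPKM in the 4 cardiomyocyte groups and 32.6 ± 6.49 and 29.2 ± 5.82 FPKM in the hearts. Mgst1 averaged 15.5 ± 7.49, 13.3 ± 6.23, 19.8 ± 6.95 and 11.03 ± 1.78 FPKM in the 4 cardiomyocyte groups and 11.8 ± 1.07 and 14.8 ± 9.004 FPKM in the hearts. Gstm1 and Gsta4 have close relatives in the genome, and reads shared with them could be split or dropped in counting.

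In the NRF2 group, Nfe2l2 itself averaged 13.1 ± 2.002, 11.3 ± 2.57, 14.0 ± 4.12 and 10.9 ± 1.80 FPKM in the 4 cardiomyocyte groups and 11.3 ± 1.98 and 11.6 ± 0.831 FPKM in the hearts. Keap1 averaged 5.57 ± 1.05, 6.24 ± 0.245, 7.32 ± 0.988 and 7.09 ± 1.00 FPKM in the 4 cardiomyocyte groups and 9.65 ± 0.981 and 8.58 ± 0.700 FPKM in the hearts. Nqo1, a quinone reductase and a standard NRF2 target, averaged 3.44 ± 1.30, 5.79 ± 0.793, 7.16 ± 3.43 and 11.01 ± 6.26 FPKM in the 4 cardiomyocyte groups and 20.7 ± 3.79 and 17.5 ± 3.98 FPKM in the hearts. Means of Keap1 and Nqo1 were higher in both heart groups than in every cell group, and those of Nfe2l2 were not. Hmox1, which breaks down heme and releases iron, had 4.05, 5.85 and 7.60 FPKM in wild-type and 4.98, 8.49 and 6.16 FPKM in knockout saline cells. The isoproterenol values were 5.79, 6.51, 5.74 and 6.60 FPKM in wild-type and 3.34, 5.28, 6.07 and 4.70 FPKM in knockout cells. Hearts had 3.93, 2.45, 2.16, 2.93 and 1.94 FPKM when labelled wild-type and 3.31, 4.09, 2.38 and 4.22 FPKM when labelled knockout. Hmox1 thus ran opposite to Nqo1, with means higher in cells for the first and in hearts for the second.

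Ftl1 (chromosome 7, 45457944 to 45459884), the light ferritin chain, had 215, 235 and 557 FPKM in wild-type and 235, 566 and 322 FPKM in knockout saline cells. After isoproterenol it had 386, 731, 266 and 499.7 FPKM in wild-type and 274, 266, 317 and 249.6 FPKM in knockout cells. Hearts had 143, 117, 129, 200.4 and 113 FPKM when labelled wild-type and 211, 153, 137 and 157 FPKM when labelled knockout. All 14 cardiomyocyte libraries lay above all 9 hearts, and the highest were PNXM647, PNXM664, PNXM649 and PNXM648, the 4 libraries named above for Gpx1 and the erythroid markers. Ferritin genes have processed copies elsewhere in the genome that can share reads. Metallothioneins bind zinc and copper and scavenge oxidants. Mt1 (chromosome 8, 94179089 to 94180325) had 25.8, 41.4 and 47.2 FPKM in wild-type and 49.0, 68.3 and 97.4 FPKM in knockout saline cells. The isoproterenol values were 59.6, 51.8, 56.6 and 98.7 FPKM in wild-type and 166, 55.9, 129 and 68.9 FPKM in knockout cells. Hearts had 412, 193, 202, 378 and 209.9 FPKM when labelled wild-type and 324, 313, 160.1 and 394 FPKM when labelled knockout, and 1 cell library, PNXM654, reached the heart range. Mt2 (chromosome 8, 94172618 to 94173567) lies beside it and had 8.35, 18.01 and 9.05 FPKM in wild-type and 6.77, 16.1 and 29.3 FPKM in knockout saline cells, and after isoproterenol 13.2, 13.3, 10.3 and 12.7 FPKM in wild-type and 21.1, 18.4, 17.6 and 16.6 FPKM in knockout cells. Hearts had 119, 27.97, 34.3, 62.1 and 38.6 FPKM when labelled wild-type and 69.1, 107, 35.4 and 118 FPKM when labelled knockout. The same 5 hearts (PNXM227, PNXM242, PNXM241, PNXM199 and PNXM229) held the 5 highest values of both genes.

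**Figure D2:**
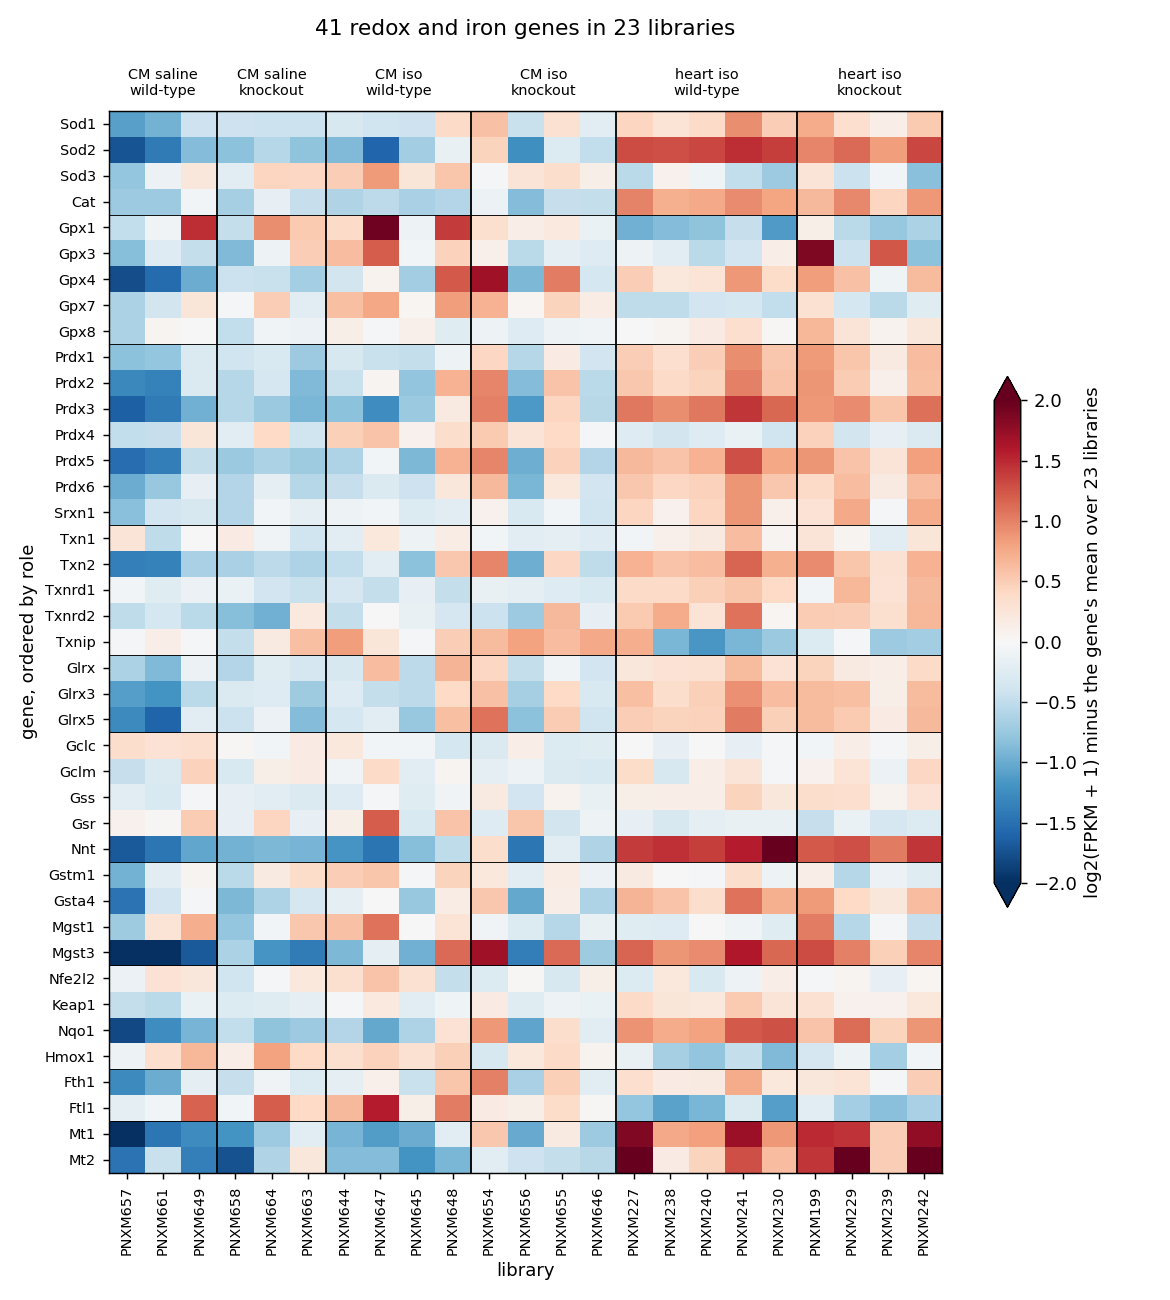
Each row is a gene, in order of role, and each column is a library, with color for log2(FPKM + 1) minus the gene's mean over the 23 libraries (values beyond 2 in either direction take the end color). Hearts on the right are high for Sod2, Cat, Nnt and the metallothioneins and low for Gpx1 and Ftl1, and PNXM648, PNXM654 and PNXM655 differ from the other isoproterenol cells.

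**Figure D3:**
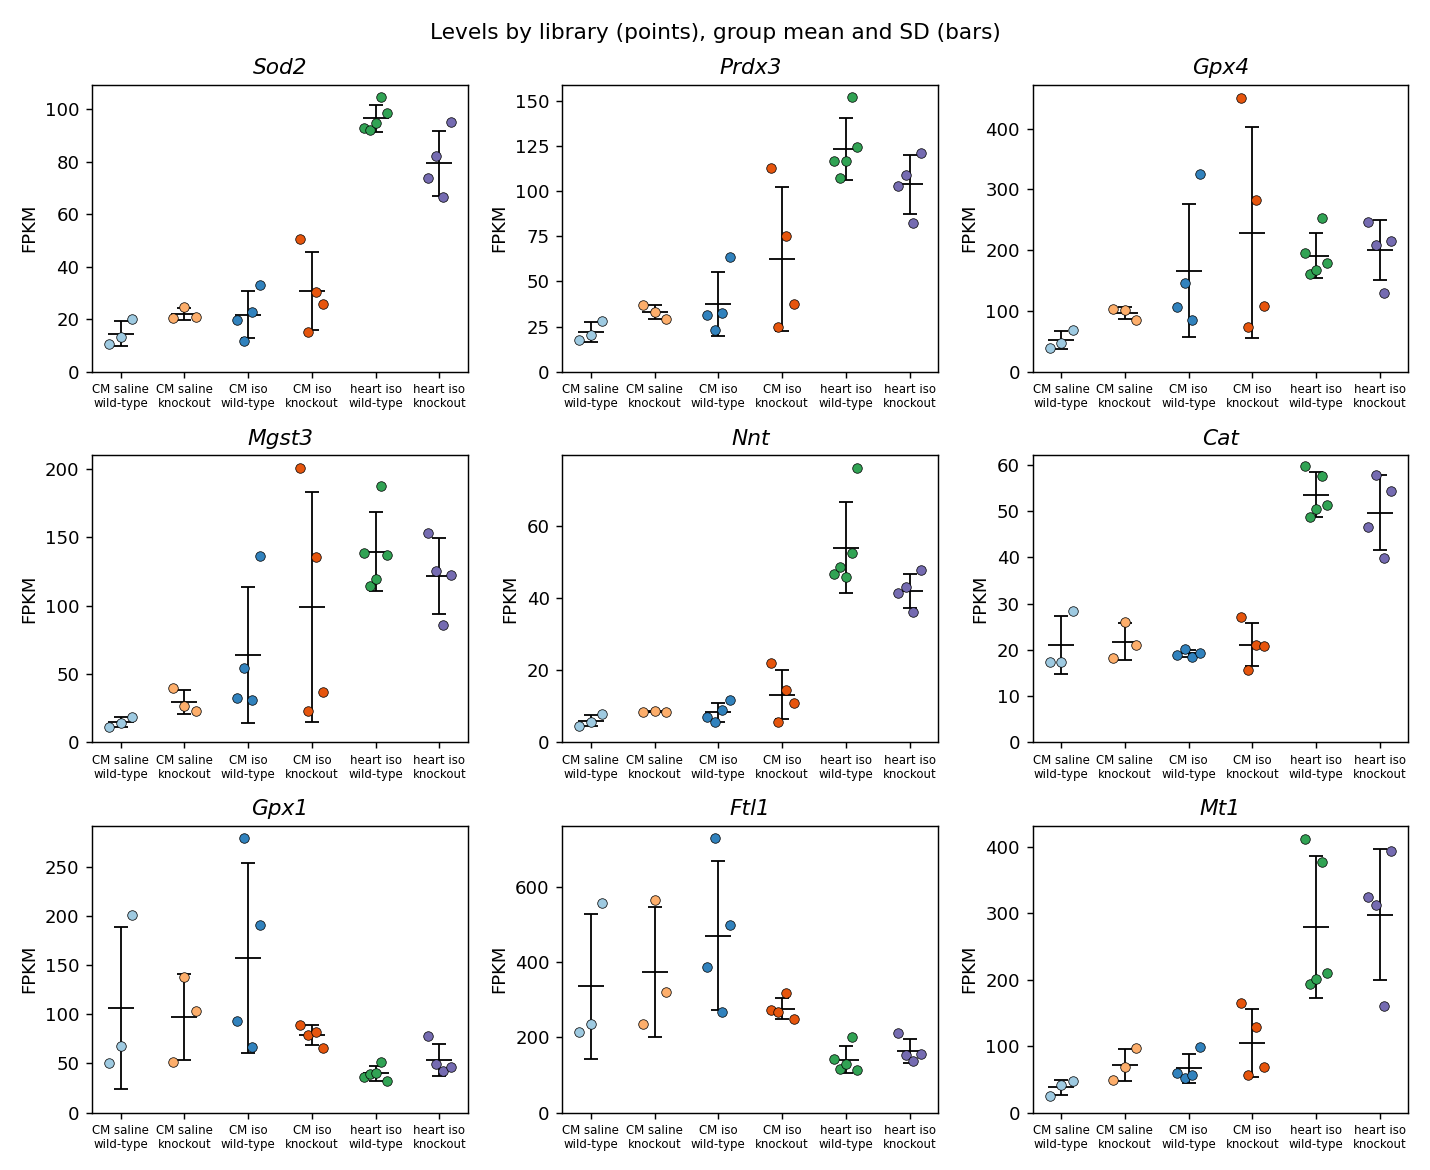
FPKM of 9 members in each library (points) by group, with the group mean and SD (bars). Sod2, Nnt and Cat are lower in all 14 cardiomyocyte libraries than in all 9 hearts, Ftl1 is higher, and Gpx4 and Mgst3 spread widely among isoproterenol cells.

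Within the isoproterenol cells the members varied largely by library. PNXM654 had the highest value of the 14 cardiomyocyte libraries for 19 of the 41 members, among them Sod2, Prdx3, Gpx4, Nnt, Mgst3 and Fth1. PNXM647 had it for 10, among them Gpx1, Gpx3, Ftl1 and Sod3. In knockout cells PNXM654 and PNXM655 were the top pair for 29 members. In wild-type cells PNXM648 was highest for 20 and PNXM647 for 17. The 3 libraries PNXM654, PNXM655 and PNXM648 also had the highest cardiomyocyte marker sums of the cells, at 9115, 6780.1 and 6855 FPKM in that order. The other isoproterenol cells, PNXM647 among them, had 2181 to 3356 FPKM. The part of this in the differences below was not tested, and the values without the 3 libraries are given beside them.

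The comparison of isolated cells with whole hearts, both after isoproterenol, was the only one in which members passed the test. It asks how far the preparation and its cell makeup set these levels, and each genotype has its own libraries. RNA isolation differed along with the preparation (TRIzol and RNeasy for cells, RNeasy for tissue) and cannot be told apart from it. Differences are of log2(FPKM + 1), a scale that understates the change of low genes, as cells minus hearts with the standard error from limma, tested two-sided. P-values are adjusted (Benjamini-Hochberg) over all genes tested, and a gene is called below 0.05. They measure the spread between libraries, which nothing in the labels ties to separate animals. Genotypes are named by label, which Panx1 went against in the hearts. Txnrd2 was called lower in cells in both genotypes but passed the filter only through the hearts, where it is high, and is left out of the counts of calls here. In libraries labelled wild-type 19 of the other 40 members were called lower in cells and 9 higher, at a background of 35 and 28.9% of all 11386 genes tested. The share of calls, 28 of 40, stands beside 63.9% of all genes, so it is near the background and nothing particular to the members. In libraries labelled knockout 11 members were called lower and 3 higher, at a background of 23.1 and 19.6%, with 42.7% of all genes called in either direction. The median difference over all 41 was -0.38 and -0.41 in that order, beside -0.10 and -0.06 over all genes. With a filter of 5 FPKM, which leaves out low genes, it was -0.55 and -0.44 over 37 members, beside -0.28 and -0.18.

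The mitochondrial genes Nnt and Sod2, the metallothioneins, Cat and Txnrd1 were lower in cells in both genotypes. Nnt averaged 8.29 ± 2.64 FPKM (SD, n = 4) in wild-type cells and 53.8 ± 12.6 FPKM (SD, n = 5) in hearts, a difference of -2.58 ± 0.28 (adjusted p = 1.47e-06) by limma. Cells labelled knockout averaged 13.2 ± 6.83 FPKM (SD, n = 4) against 41.9 ± 4.72 FPKM (SD, n = 4) in hearts so labelled, a difference of -1.73 ± 0.30 (adjusted p = 0.000289). Cat differed by -1.43 ± 0.15 (adjusted p = 1.25e-06) and -1.21 ± 0.16 (adjusted p = 3.85e-05) under the wild-type and the knockout label, the smallest p of the members in each. Sod2 differed by -2.19 ± 0.29 (adjusted p = 8.14e-06) and -1.46 ± 0.30 (adjusted p = 0.00124). For these 3 genes no cell library reached the heart values in either genotype. Txnrd1 differed by -0.80 ± 0.14 (adjusted p = 9.03e-05) and -0.61 ± 0.14 (adjusted p = 0.00271), again with no overlap.

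Mt1 differed by -2.02 ± 0.36 (adjusted p = 0.000142) under the wild-type label. Under the knockout label it differed by -1.56 ± 0.38 (adjusted p = 0.00364), where PNXM654 at 166 FPKM overlapped the heart PNXM239 at 160.1 FPKM. Mt2 differed by -1.91 ± 0.37 (adjusted p = 0.000287) and -1.97 ± 0.39 (adjusted p = 0.000846), with all cells below all hearts in each genotype. Prdx3 and Nqo1 were called under the wild-type label, at -1.78 ± 0.35 (adjusted p = 0.000375) and -1.48 ± 0.32 (adjusted p = 0.000719). Under the knockout label Prdx3 was -0.94 ± 0.37 and Nqo1 was -0.77 ± 0.34, and neither passed.

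Of the genes higher in wild-type cells, Ftl1 differed by 1.67 ± 0.26 (adjusted p = 3.56e-05), Gpx1 by 1.75 ± 0.32 (adjusted p = 0.0002), Gpx7 by 1.01 ± 0.18 (adjusted p = 0.000162) and Hmox1 by 0.98 ± 0.17 (adjusted p = 9.5e-05). These 4 turned lower, to -0.62, -0.52, -0.93 and -0.80, when libraries were set to an equal sum over all genes including mitochondrial ones. That scaling moved the median of all genes to -1.60, and relative to it they stayed above. It shifts all genes of a library almost alike, so staying above the median was fixed in advance and is no further test. Under the knockout label the 3 genes called higher were Txnip at 1.13 ± 0.33 (adjusted p = 0.011), Ftl1 at 0.76 ± 0.27 (adjusted p = 0.0318) and Gpx7 at 0.54 ± 0.19 (adjusted p = 0.0331), which were -0.35, -0.73 and -0.76 with that scaling, where the median of all genes was -1.19. Txnip was also called under the wild-type label, at 0.98 ± 0.31 (adjusted p = 0.0111), although PNXM227, at 170.5 FPKM, lay within the range of the cells. Hmox1 was 0.38 ± 0.18 under the knockout label and did not pass.

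The remaining calls under the wild-type label were Sod3, Prdx4, Gsr and Mgst1, higher in cells by 0.59 to 0.89 on the deposited scale and lower with the equal sum over all genes, under which 0 of 41 members were higher. Those lower in cells were Prdx1, Prdx5, Prdx6, Srxn1, Sod1, Txn2, Glrx3, Gss, Gsta4, Mgst3 and Keap1, at -1.37 to -0.36. Under the knockout label the further calls were all lower, with Gpx8 at -0.44 ± 0.13 (adjusted p = 0.0157), Srxn1 at -0.60 ± 0.19 (adjusted p = 0.0193), Prdx1 at -0.64 ± 0.21 (adjusted p = 0.0241), and Gss and Gsta4 at -0.77 to -0.34. By role, under the wild-type label all 4 superoxide dismutase and catalase genes were called (1 higher, Sod3), 6 of 7 peroxiredoxin and sulfiredoxin genes (1 higher, Prdx4) and both metallothioneins, while 2 of 5 glutathione peroxidases were called and both were higher. In the other roles Txn1, Glrx, Glrx5, Gclc, Gclm, Gstm1, Nfe2l2 and Fth1 were not called. The share called over all genes was 63.9%, and no role was tested against it. Nfe2l2 was called in neither genotype, at 0.25 ± 0.18 and -0.09 ± 0.19. Keap1 was called lower under the wild-type label at -0.36 ± 0.11 (adjusted p = 0.0108) and was -0.25 ± 0.12 under the knockout label.

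Of the 28 genes called under the wild-type label, 13 (46.4%) were also called in the same direction under the knockout label, which is 92.9% of the 14 calls there. These were 10 lower (Cat, Nnt, Sod2, Txnrd1, Mt1, Mt2, Prdx1, Gsta4, Gss and Srxn1) and 3 higher (Ftl1, Gpx7 and Txnip). Over all 11386 genes 7281 and 4861 were called under the wild-type and the knockout label. The share called in both was not computed over all genes, so the percentages above are not shown to be particular to the members. The difference between the genotypes was tested itself, as a contrast added after these counts were seen. No member and none of the 11386 genes (0%) was called in it by limma, 5 members and 1240 genes had an unadjusted p under 0.05, and limma with voom weights on the recovered reads also called 0. The members with the smallest p were Hmox1 at -0.61 ± 0.24 (adjusted p = 0.426), Gpx1 at -1.17 ± 0.47, Ftl1 at -0.91 ± 0.37, Gpx3 at -1.47 ± 0.63, Mgst1 at -0.90 ± 0.39 and Nnt at 0.85 ± 0.41 (adjusted p = 0.462). The genes called in 1 genotype are therefore not shown to differ between them.

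Libraries did not overlap for 7 members above (Ftl1, Hmox1, Gpx7, Gpx1, Sod3, Prdx4 and Mgst1) and, with Txnrd2 left out, 15 below under the wild-type label, beside 22.9 and 29.2% of all genes. Under the knockout label it was 2 above (Ftl1 and Txnip) and 6 below (Cat, Nnt, Mt2, Sod2, Txnrd1 and Gpx8), beside 17.4 and 16.8%. Cell makeup moved along with preparation. Under the wild-type label 7 of 8 cardiomyocyte markers were called lower in cells, with a median of -1.69 over the 8, and all 8 endothelial, 7 macrophage, 7 neutrophil and 7 erythroid markers were called higher (erythroid median 6.95). Under the knockout label 3 of 8 cardiomyocyte markers were called lower (median -0.83), with 8 endothelial, 7 macrophage, 6 neutrophil and 6 erythroid markers called higher. The 7 neutrophil markers summed to only 0.347 to 2.68 FPKM in a heart, so most passed the filter only through the cells, where they are high. Their calls as higher were thus largely fixed in advance. The part of these cell types in the member differences was not tested.

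Limits of the counts were as follows. With totals set equal outside the mitochondrial chromosome, which moved the median of all genes to -0.34 and -0.12, 4 members (Txnrd2 is counted here) were called higher and 26 lower under the wild-type label and 3 higher and 21 lower under the knockout label, and without PNXM648, PNXM654 and PNXM655 the knockout split was 1 higher and 26 lower. Over all genes the calls in that order were 1943 higher and 5254 lower, 1642 higher and 2818 lower, and 2693 higher and 3639 lower. The knockout count, 15 with Txnrd2, was 9 without the heart PNXM229 and 8 without the heart PNXM242. Over all genes it was 4024 and 3832 there, in place of 4861. Ftl1 and Gpx7 lost their calls without PNXM229 (adjusted p = 0.0719 and 0.0853), PNXM239 (0.0796 and 0.103), PNXM242 (0.0689 and 0.0708) or PNXM655 (0.0767 and 0.0751), Ftl1 also without PNXM656 (0.0526) and Gpx7 without PNXM654 (0.0901). Prdx1 lost its call without PNXM199 (0.069), PNXM242 (0.0579), PNXM646 (0.0772) or PNXM656 (0.0892). Srxn1 lost it without PNXM229 (0.0703), PNXM242 (0.0712), PNXM646 (0.0608) or PNXM656 (0.0534), and Gpx8 without PNXM199 (0.0505).

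**Figure D4:**
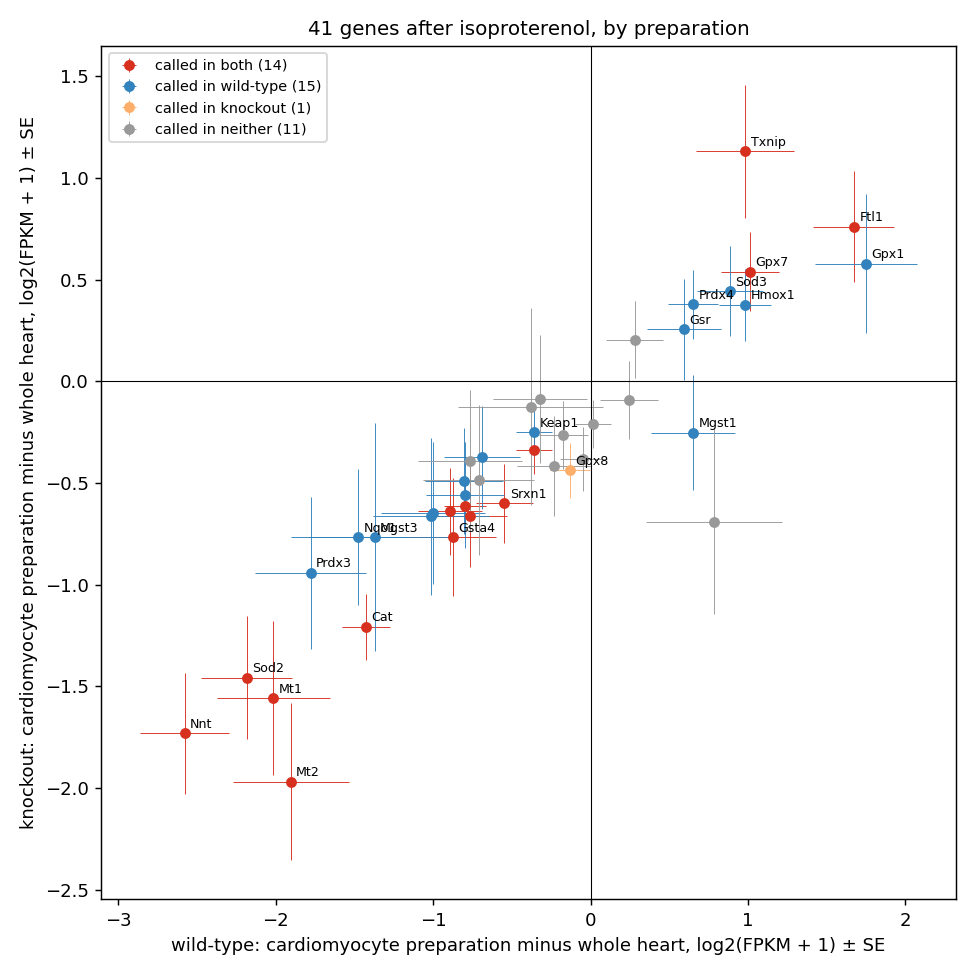
Difference between cells and hearts for the 41 members under the wild-type (horizontal axis) and the knockout label (vertical axis), in log2(FPKM + 1) ± SE, with color for the calls (Txnrd2 included). On the deposited scale Nnt, Sod2, Mt1, Mt2 and Cat lie at the lower left and Ftl1, Gpx7 and Txnip at the upper right, where the last 3 turn negative with libraries set to an equal sum over all genes.

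Other genes of these pathways were read out in the same fit, cells against hearts of the same label, beside 63.9 and 42.7% of all genes called under the wild-type and the knockout label. List counts that lie near these shares say nothing particular about a list, and no difference from them was tested. Of 10 NADPH oxidase and other oxidant source genes, 9 were called higher and 1 lower in wild-type cells (median 1.84), and 6 higher and 1 lower in knockout cells (median 0.97), but 5 of the 10, Rac2 and Ncf4 among them, passed the filter only through the cells, where they are high. Rac2 and Ncf4, subunits of the phagocyte oxidase, were higher by 3.28 ± 0.32 and 2.21 ± 0.29 in wild-type cells, beside the macrophage and neutrophil markers above, and their part was not tested. Maob, a mitochondrial monoamine oxidase, was the 1 called lower in each genotype, at -1.46 ± 0.23 and -0.98 ± 0.24. Of 31 genes of iron handling, 5 were called higher and 17 lower in wild-type cells and 1 and 6 in knockout cells. They include Nfs1, the cysteine desulfurase of iron-sulfur cluster assembly, at -1.73 ± 0.18 in wild-type cells, and Slc39a14, a metal importer, at -0.99 ± 0.16 in knockout cells. Of the 31, Hamp and Slc40a1 passed the filter only through the hearts, and Slc39a8 and Trf only through the cells.

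Of 33 further glutathione, glutaredoxin and thioredoxin enzymes, 8 were called higher and 16 lower in wild-type cells and 5 and 13 in knockout cells. The shares over all genes were 63.9 and 42.7%. Msrb3, a methionine sulfoxide reductase, was at -1.41 ± 0.13 and -1.08 ± 0.14. Txnrd3 was at -1.08 ± 0.10 in wild-type and Sesn1, a sestrin, at -1.29 ± 0.18 in knockout cells. Of 17 genes of NADPH supply, 5 were called higher and 8 lower in wild-type cells and 2 and 8 in knockout cells. Nadk2, the mitochondrial NAD kinase, was at -1.58 ± 0.13 and -1.10 ± 0.14, Me1, malic enzyme, at -1.53 ± 0.21 in wild-type and Aldh1l2, of mitochondrial folate metabolism, at -0.77 ± 0.12 in knockout cells.

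Of 23 NRF2 partners and further targets, 7 were called higher and 8 lower in wild-type cells and 2 and 7 in knockout cells. That is near the 63.9 and 42.7% of all genes called, so it is nothing particular to this list. Ephx1, epoxide hydrolase, was at 1.86 ± 0.20 and Cul3, the ligase scaffold that KEAP1 uses, at -1.28 ± 0.15 in wild-type cells, and Abcc4 was at 0.54 ± 0.12 and Nqo2 at -0.54 ± 0.12 in knockout cells. Of 11 ferroptosis genes, 3 were called higher and 6 lower in wild-type cells and 2 and 3 in knockout cells. Cisd2 was at -1.13 ± 0.16 and -0.67 ± 0.17, Alox15, a lipoxygenase, at 3.27 ± 0.48 in wild-type and Alox12 at 1.07 ± 0.23 in knockout cells. Of 4 metal response genes, 1 was called in each direction in both genotypes, Mtf1 at -0.32 ± 0.10 and -0.30 ± 0.10 and the zinc importer Slc39a10 at 0.47 ± 0.18 and 0.69 ± 0.19. In the lists from the glutathione enzymes to the metal response, Alox12, Alox15, Gstt3 and Ptgr1 passed the filter only through the cells. Mtf1, Aldh1l1 and Aldh1l2 passed it only through the hearts, and the counts include all of these. These values are on the deposited scale, as are the medians.

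The response of cardiomyocytes to isoproterenol was compared with saline in each genotype. In wild-type cells 38 of 41 members had a higher and 3 a lower value on the deposited scale, with a median difference of 0.51 beside 0.04 over all genes, but no member was called by limma, at a background of 0.705% of 11919 genes called (0.654% higher and 0.0503% lower). At an unadjusted p under 0.05 there were 11 members, beside 2896 genes, and voom called 0 members. With a filter of 5 FPKM the median was 0.60 over 37 members beside 0.28 over all genes, a smaller gap. With quantile normalisation it was 0.20 beside 0.0074. With totals set equal outside the mitochondrial chromosome the members split 13 higher and 28 lower and the median of all genes moved to -0.52, and with the equal sum over all genes they split 2 and 39, at a median of -1.01. The direction of the members thus depends on the scaling. Relative to the median of all genes none of the named values turned, but such a scaling shifts all genes almost alike, so this was fixed in advance. Without PNXM648, and PNXM654 and PNXM655 in the shared fit, 36 of 39 members were higher on the deposited scale (median 0.44).

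Gpx7 had the smallest p in wild-type cells, at 0.82 ± 0.26 (adjusted p = 0.137) by limma. Gpx3 was at 1.08 ± 0.35 (adjusted p = 0.138), with 91.3, 138 and 118 FPKM after saline and 253, 383, 158 and 228 FPKM after isoproterenol, so that the groups did not overlap. Sod3 was at 0.75 ± 0.24 (adjusted p = 0.141), with 6.55, 10.9 and 14.2 against 17.2, 22.2, 14.2 and 18.02 FPKM. The Sod3 groups did not overlap either, by a narrow gap from 14.16 FPKM in PNXM649 to 14.21 FPKM in PNXM645. Mgst3 was at 1.80 ± 0.67 (adjusted p = 0.163) and Gpx4 at 1.498 ± 0.57 (adjusted p = 0.165), the largest differences, with no overlap in either and PNXM648 far above the others. Prdx4 was at 0.61 ± 0.23 (adjusted p = 0.165). With the equal sum over all genes Gpx3, Gpx7, Sod3 and Prdx4 were -0.34, -0.42, -0.58 and -0.62. Mt1 was at 0.79 ± 0.39, Nnt at 0.39 ± 0.34, Txnip at 0.36 ± 0.27, Keap1 at 0.35 ± 0.15, Mt2 at 0.13 ± 0.36, Hmox1 at 0.10 ± 0.21 and Nfe2l2 at 0.05 ± 0.24. Isoproterenol libraries lay above all saline libraries for 7 members (Gpx3, Sod3, Mgst3, Gpx4, Glrx3, Mt1 and Srxn1), beside 11.7% of all genes, and below for Gclc alone, beside 7.11%.

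In knockout cells 28 members were higher and 13 lower, with a median of 0.28 beside 0.0050 over all genes. No member and no gene was called (0%), 1 member and 807 genes had an unadjusted p under 0.05, and voom also called 0. That member was Txnip, at 0.61 ± 0.27 (adjusted p = 0.582) by limma, with 73.3, 116 and 156 FPKM after saline and 160.2, 179.5, 159 and 174 FPKM after isoproterenol, and it was the only member whose isoproterenol libraries all lay above the saline libraries, beside 3.33% of genes. None lay below, beside 4.82%. Mgst3 was at 1.25 ± 0.67, Gpx4 at 0.89 ± 0.57, Nqo1 at 0.66 ± 0.40, Sod1 at 0.48 ± 0.29 and Hmox1 at -0.36 ± 0.21, each with an adjusted p of 0.582 by limma. Hmox1 was 0.29 with the equal sum over all genes. Nnt was at 0.44 ± 0.34, Mt1 at 0.46 ± 0.39, Mt2 at 0.28 ± 0.36, Keap1 at 0.15 ± 0.15 and Nfe2l2 at -0.04 ± 0.24. Without PNXM654 and PNXM655, and PNXM648 in the shared fit, 13 of 39 members were higher and 26 lower, with a median of -0.10, and Gpx4 was -0.11. With totals equal outside the mitochondrial chromosome 35 members were higher, at a median of all genes of 0.12. With a filter of 5 FPKM the median over members was 0.34 beside 0.13 over all genes.

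By role, all 7 peroxiredoxin and sulfiredoxin genes and all 3 glutaredoxins had higher values after isoproterenol in both genotypes, at medians of 0.61 and 0.73 in wild-type and 0.38 and 0.43 in knockout cells, and none passed the test. The 5 glutathione peroxidases were all higher in wild-type cells (median 0.82), and 3 higher and 2 lower in knockout cells (median 0.09). With the equal sum over all genes 39 of the 41 members were lower in wild-type cells, at a median of all genes of -1.01. In knockout cells 41 were higher, at a median of all genes of 0.55. The direction in wild-type cells thus depends on the scaling. In knockout cells it depends on the libraries, with 13 members higher and 26 lower without PNXM648, PNXM654 and PNXM655. The 8 cardiomyocyte markers were all higher after isoproterenol in both genotypes, with medians of 0.86 and 0.67 and 0 called, and 2 of 8 endothelial markers were called higher in wild-type cells. Their part was not tested.

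The mean response over both genotypes gave 36 members higher and 5 lower, with a median of 0.37 beside 0.02. No member was called by limma, at a background of 2.22% (1.38% higher and 0.847% lower), while 15 members and 3917 genes had an unadjusted p under 0.05 and voom called 0 members. Mgst3 came nearest, at 1.53 ± 0.47 (adjusted p = 0.0828), followed by Gpx4 at 1.19 ± 0.40 (adjusted p = 0.0887), Prdx4 at 0.48 ± 0.16 (adjusted p = 0.0887), Gpx7 at 0.53 ± 0.18 (adjusted p = 0.0908), Gclc at -0.30 ± 0.10 (adjusted p = 0.0913) and Sod1 at 0.56 ± 0.21 (adjusted p = 0.1). Without PNXM656, 6 were called higher and 1 lower, beside 1231 higher and 723 lower over all genes. Among these members were (adjusted p in parentheses) Mgst3 (0.0371), Gpx4 (0.0371), Sod1 (0.0479) and Gclc (0.0399). Without PNXM649 Gpx7 (0.0496) and Prdx4 (0.044) were called, beside 722 calls over all genes. Without PNXM648, PNXM654 and PNXM655 33 of 39 were higher, at a median of 0.20, and 0 called. A filter of 5 FPKM gave medians of 0.42 over members and 0.21 over all genes. With totals equal outside the mitochondrial chromosome 25 members were higher and 16 lower, with the median of all genes at -0.20. Nnt was at 0.42 ± 0.24, Mt1 at 0.63 ± 0.28, Mt2 at 0.21 ± 0.26, Txnip at 0.48 ± 0.19, Keap1 at 0.25 ± 0.11, Hmox1 at -0.13 ± 0.15 and Nfe2l2 at 0.00 ± 0.17.

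The knockout response minus the wild-type response was tested as an interaction, and 9 members were higher and 32 lower (median -0.24 beside -0.02). No member and no gene was called by limma (0%), 2 members and 294 genes had an unadjusted p under 0.05, and voom called 0. These members were Gpx3 at -1.15 ± 0.49 and Sod3 at -0.79 ± 0.35, followed by Gstm1 at -0.74 ± 0.41, Txnrd1 at 0.32 ± 0.19, Gpx7 at -0.58 ± 0.37 and Hmox1 at -0.46 ± 0.30, each with an adjusted p of 1. With totals equal outside the mitochondrial chromosome 40 members were higher, at a median of all genes of 0.67, so no direction of the difference can be given apart from the scaling. Without PNXM648, PNXM654 and PNXM655 5 of 39 were higher, at a median of -0.51. A filter of 5 FPKM gave medians of -0.24 over members and -0.11 over all genes. On the deposited scale Nnt was at 0.05 ± 0.48, Txnip at 0.25 ± 0.38, Mt1 at -0.32 ± 0.55, Mt2 at 0.15 ± 0.51, Keap1 at -0.19 ± 0.21 and Nfe2l2 at -0.09 ± 0.34.

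**Figure D5:**
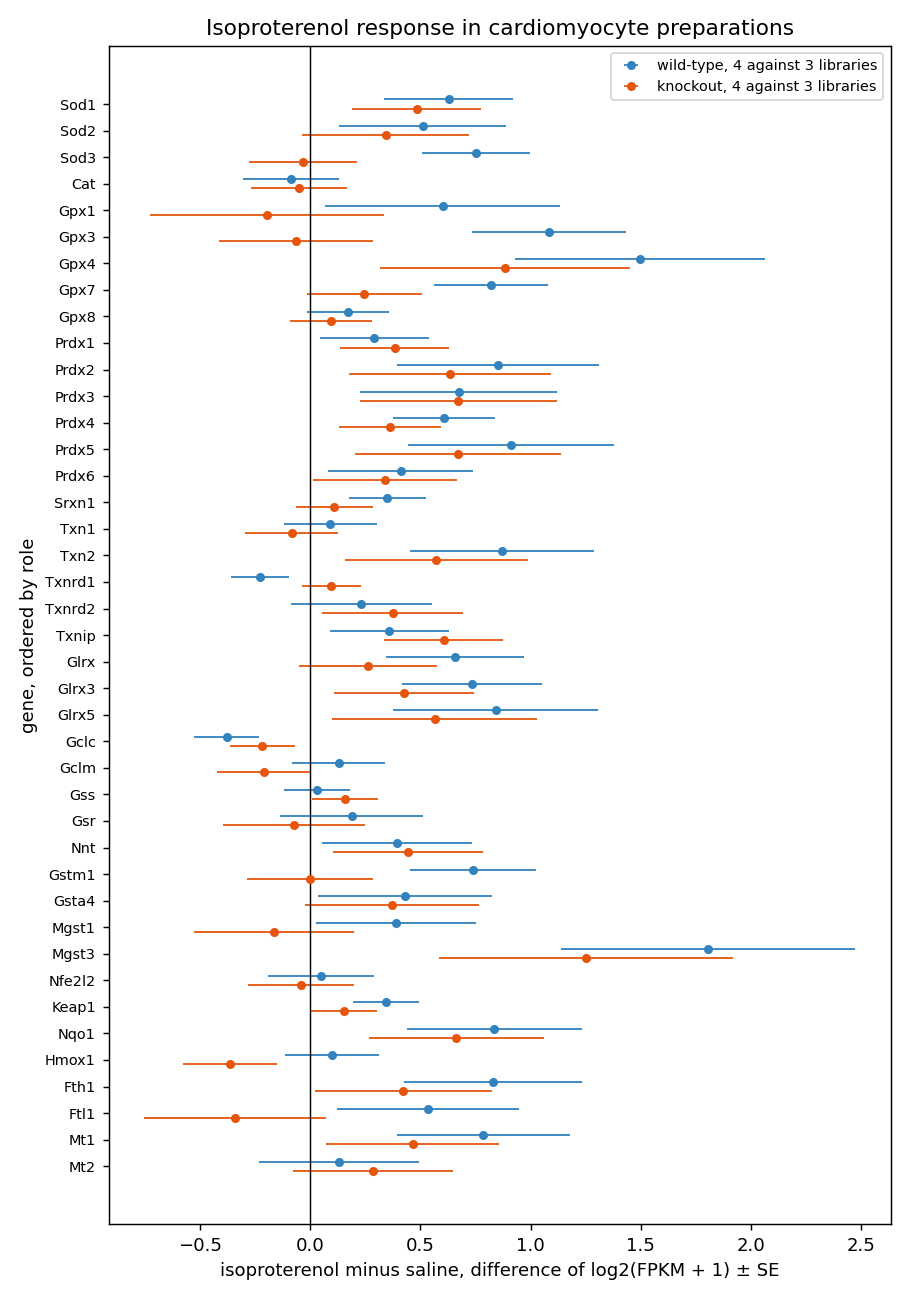
Isoproterenol minus saline in wild-type (blue) and knockout cells (orange) for each member, in log2(FPKM + 1) ± SE on the deposited scale, with 4 against 3 libraries in each. Most points lie right of 0, Mgst3 and Gpx4 farthest, and none was called, while with the equal sum over all genes 39 of 41 wild-type values are negative.

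Calls in the pathway lists stand beside 0.705% of all genes in wild-type cells and 2.22% in the mean response, and no list was tested against these shares. Of 34 further glutathione, glutaredoxin and thioredoxin enzymes 1 passed in wild-type cells, and no gene of the other pathway lists did. This was Sesn3, a sestrin of the peroxide response, which fell by 0.89 on the log2 scale after isoproterenol, as deposited (SE 0.16, adjusted p = 0.0322 by limma). In the mean response Sesn3 was at -0.64 ± 0.11 (adjusted p = 0.0222), Nxn, nucleoredoxin of the thioredoxin family, at 0.59 ± 0.12 (adjusted p = 0.0294), and Maff, a small MAF partner of NRF2, at 0.53 ± 0.12 (adjusted p = 0.042). Bach1, the heme-sensing repressor of Hmox1, was at -0.72 ± 0.18 (adjusted p = 0.0574) and did not pass. In knockout cells none passed, with Nxn at 0.52 ± 0.17, Sesn3 at -0.38 ± 0.16 and Bach1 at -0.60 ± 0.26. No gene at all was called in the wild-type or the mean response with totals equal outside the mitochondrial chromosome, and without PNXM648, PNXM654 and PNXM655 1 gene was called in each. In the wild-type response no gene was called without PNXM644, PNXM647, PNXM648 or PNXM661 alone, and 1 without PNXM657, so the Sesn3 call there rests on single libraries, and the mean response had 1 called gene without PNXM664.

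Knockout and wild-type cells were compared within each treatment, which asks whether loss of Panx1 in cardiomyocytes goes with the level of these genes. After saline 32 members had higher and 9 lower values in knockout cells (median 0.20 beside 0.01), and none was called by limma, as was no gene (0%). No member and 421 genes had an unadjusted p under 0.05, and voom called 0. Mt1 was at 0.88 ± 0.42, with 25.8, 41.4 and 47.2 FPKM in wild-type and 49.0, 68.3 and 97.4 FPKM in knockout cells, which did not overlap. Gclc was at -0.27 ± 0.16, Glrx3 at 0.53 ± 0.34, Nqo1 at 0.65 ± 0.42, Gpx4 at 0.92 ± 0.61 and Sod3 at 0.43 ± 0.26, all with an adjusted p of 0.895 by limma. Knockout libraries lay above all wild-type libraries for 8 members (Mt1, Nqo1, Gpx4, Sod2, Mgst3, Nnt, Prdx3 and Txn2), beside 11.9% of genes, and below for Gclc, beside 2.89%. With a filter of 5 FPKM the median over members was 0.34 beside 0.11 over all genes.

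The saline cells differed in mitochondrial reads, at 55.3 to 65.0% in wild-type and 69.3 to 80.0% in knockout libraries, and in all 8 cardiomyocyte markers, higher in knockout cells by a median of 0.92, and the part of these was not tested. With totals equal outside the mitochondrial chromosome 11 members were higher and 30 lower, with the median of all genes at -0.39, and Sod3 was -0.06. With the equal sum over all genes 0 were higher, at a median of -0.89, where Mt1, Nqo1, Gpx4, Glrx3 and Sod3 were -0.29, -0.30, -0.26, -0.60 and -0.68. Nnt was at 0.46 ± 0.36, Txnip at 0.07 ± 0.29, Mt2 at 0.39 ± 0.39, Hmox1 at 0.15 ± 0.23, Nfe2l2 at -0.20 ± 0.26 and Keap1 at 0.15 ± 0.16 on the deposited scale.

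After isoproterenol 22 members were higher and 19 lower in knockout cells (median 0.08 beside 0.0070), with 0 members and 0% of genes called by limma, 2 members and 739 genes at an unadjusted p under 0.05 and 0 called by voom. The 2 were Gpx3, at -0.78 ± 0.32, with 253, 383, 158 and 228 FPKM in wild-type and 176, 113, 144 and 137 FPKM in knockout cells, and Mgst1, at -0.75 ± 0.34, with 20.4, 29.3, 13.3 and 16.2 against 12.7, 10.9, 8.60 and 11.96 FPKM. The groups overlapped for Gpx3 and not for Mgst1. Mgst1 was the 1 member whose knockout libraries all lay below, beside 2.47% of genes. Mt2 was the 1 member with all above, at 0.54 ± 0.34 and 13.2, 13.3, 10.3 and 12.7 against 21.1, 18.4, 17.6 and 16.6 FPKM, beside 0.873%. Ftl1 was at -0.67 ± 0.38, Nnt at 0.51 ± 0.32 and Hmox1 at -0.31 ± 0.20, and the adjusted p of all 6 was 0.797. With the equal sum over all genes all 41 members were higher, at a median of 0.71, with Gpx3, Mgst1, Ftl1 and Hmox1 at 0.22, 0.20, 0.33 and 0.53.

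Neutrophil and erythroid markers were lower in knockout isoproterenol cells, 7 of 7 in each list with medians of -1.54 and -1.59 and 0 called, and mitochondrial reads were 46.8 to 69.3% against 75.6 to 79.3%. Their part was not tested. Without PNXM648, PNXM654 and PNXM655 the members split 9 higher and 30 lower (median -0.23). Txnip was at 0.32 ± 0.25, Mt1 at 0.56 ± 0.36, Nfe2l2 at -0.29 ± 0.22 and Keap1 at -0.04 ± 0.14. Over both treatments 27 members were higher and 14 lower in knockout cells (median 0.06 beside 0.0037), 0 members and 0% of genes were called by limma, 1 member and 1045 genes had an unadjusted p under 0.05, and voom called 0. That member was Mt1, at 0.72 ± 0.28 (adjusted p = 0.55) by limma, followed by Nnt at 0.49 ± 0.24, Nqo1 at 0.56 ± 0.28, Sod2 at 0.52 ± 0.27, Gclc at -0.19 ± 0.10 and Prdx3 at 0.59 ± 0.32. The split was 21 higher and 20 lower with totals equal outside the mitochondrial chromosome, and without the 3 libraries it was 19 and 20 of 39. Mt2 was at 0.47 ± 0.26, Txnip at 0.20 ± 0.19, Hmox1 at -0.08 ± 0.15, Nfe2l2 at -0.25 ± 0.17 and Keap1 at 0.06 ± 0.11.

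Whole hearts are compared by their labels, which Panx1 went against. In hearts labelled knockout 18 members were higher and 23 lower (median -0.04, as over all genes), and 0 members and 0% of 10189 genes were called by limma, with 1 member and 652 genes at an unadjusted p under 0.05 and 0 called by voom. That member was Sod2, at -0.29 ± 0.12 (adjusted p = 0.743) by limma, with 92.9, 92.2, 94.8, 105 and 98.4 FPKM in hearts labelled wild-type and 73.7, 82.3, 66.5 and 95.1 FPKM in hearts labelled knockout, where PNXM242 overlapped the first group. Nnt was at -0.33 ± 0.16, Gpx1 at 0.39 ± 0.19, Gstm1 at -0.28 ± 0.16, Hmox1 at 0.29 ± 0.17 and Prdx3 at -0.25 ± 0.15, with adjusted p from 0.779 to 0.851. Mt1, Mt2, Txnip, Nfe2l2 and Keap1 were at 0.10 ± 0.31, 0.60 ± 0.45, 0.17 ± 0.35, 0.04 ± 0.12 and -0.15 ± 0.10. No member separated the groups, beside 0.756% of genes above and 1.63% below. With totals equal outside the mitochondrial chromosome 27 members were higher and 14 lower, and with the equal sum over all genes 36 and 5, at a median of all genes of 0.12. All 8 cardiomyocyte markers were lower (median -0.31) and all 7 macrophage markers higher (median 0.41) in hearts labelled knockout, with 0 called, and their part was not tested. No further pathway gene was called in any comparison of the genotypes.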

How the data were processed

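Gene values are FPKM, which the authors computed and deposited as 1 table, after alignment with HISAT2 2.0.5 and counting with featureCounts, per the submitters' processing notes. RNA was isolated with TRIzol and RNeasy from cells and with RNeasy from tissue and was sequenced by Novogene, per the labels. The genome build and strand use are not given in the sources used here. The coordinates of 41 of 42 member rows overlap GENCODE M21 (GRCm38) genes of the same identifier, 27 of them exactly, and the other row is a second Txnrd2 entry at 0 or 1 reads, left out. Columns name a group and a library identifier. The header WHO was taken as whole heart. A misaligned line was left out.

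The FPKM of 1 library are whole reads divided by gene length and a library size (446415 values lay within 2.19e-06 of a whole read). That size was 0.426 to 1.88 times the assigned reads, so the deposited values carry a scaling between libraries. The share of mitochondrial reads differed between groups, and directions can turn under another scaling.

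Differences were fitted with limma 3.58.1 (R 4.3.3) on log2(FPKM + 1), with trended empirical Bayes moderation, two-sided, on genes that reached 1 FPKM in 3 libraries (14 cardiomyocyte libraries in 1 fit) or 4 libraries (9 hearts, or 17 isoproterenol libraries). P-values were Benjamini-Hochberg adjusted over all genes tested, and the call is at 0.05. The code was run on simulated reads with planted changes, 1 spread setting for all genes and the same makeup in every library. That run does not cover differences in cell makeup or mitochondrial share between libraries. The members and gene lists were chosen with earlier results of these data known. The rule names up to 12 called members with the smallest p in a comparison, or 6 members where fewer are called, and Nnt, Txnip, Mt1, Mt2, Hmox1, Nfe2l2 and Keap1 in each, with up to 2 genes per pathway list. Other called members are listed by name with a range, and a few items that the rule would name are not reported here. Alternatives were a pseudocount of 0.1, no filter or an FPKM of 5, equal sums outside the mitochondrial chromosome or over all genes, quantile normalisation, the compared groups alone, robust moderation and each library left out. Chosen after seeing the data were limma with voom weights on the recovered reads, FPKM per assigned reads, the contrast between the preparations' differences, and the omission of PNXM648, PNXM654 and PNXM655. Sequences and figures were made with Python 3.11.15, pandas 2.3.3, numpy 2.4.6 and matplotlib 3.10.9.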

Additional observations from a re-analysis of the deposited data

Results flagged for a closer look

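Of 164 pairs of a member and a group with 4 or 5 libraries, 13 held a library far from the others of its group by Dixon's criterion, where chance gives about 1 in 20. Of these, 7 were high values in PNXM241, a heart labelled wild-type. There Prdx2 was 91.7 FPKM (next 67.9), Prdx5 137 FPKM (next 95.4), Prdx6 29.3 FPKM (next 22.8), Txn2 47.4 FPKM (next 34.5), Glrx 11.7 FPKM (next 9.16), Glrx5 111 FPKM (next 75.8) and Fth1 1501 FPKM (next 1126). In other hearts Txnip was 170.5 FPKM in PNXM227 (next 61.1), Nnt was 75.8 FPKM in PNXM230 (next 52.5) and Glrx3 was low at 31.1 FPKM in PNXM239, below the next value of 43.98 FPKM. In wild-type isoproterenol cells PNXM648 was high for Sod1 at 162 FPKM (next 99.5) and Mt1 at 98.7 FPKM (next 59.6). In knockout isoproterenol cells Gclc was 3.93 FPKM in PNXM656 (next 2.82), the library that was lowest of its group for most other members. No reason for these values was tested.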

How the results depend on the processing

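All 78 named values kept their direction under the other pseudocount, both other filters, quantile normalisation, the compared groups alone, robust moderation and voom weights, wherever these gave a value, and calls were lost for 3 with the compared groups alone, 2 with no filter and 1 with quantile normalisation. In 780 values with a library left out, 755 kept direction and side of the threshold, 19 lost a call, 6 gained one and 0 turned. With Txnrd2 counted, 29 and 15 members were called between preparations under the wild-type and the knockout label. Members called ranged from 24 to 31 without a library in the wild-type comparison of preparations, from 8 to 21 in the knockout one, and from 0 to 7 in the mean isoproterenol response. Over all genes these ranges were 6523 to 7336, 3832 to 5558 and 1 to 1954. The knockout comparison of preparations called 24 members with equal sums outside the mitochondrial chromosome, 40 with equal sums over all genes, 33 per assigned reads and 27 without PNXM648, PNXM654 and PNXM655. Over all genes it called 4460, 9809, 8548 and 6332 in that order.

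With equal sums over all genes and per assigned reads, members called were 18 and 16, all lower, after isoproterenol in wild-type cells, 25 and 20, all higher, in knockout against wild-type isoproterenol cells, 20 and 12, all lower, after saline, and 37 and 34, all higher, in the interaction. Per assigned reads 4 were called in the difference between preparations by genotype. These scalings also moved calls over all genes, from 84 to 8912 and 7866 after isoproterenol in wild-type cells and from 0 to 10827 and 10031 in the interaction, 7699 and 6181 in saline cells, 6865 and 4956 in isoproterenol cells by genotype and 1 and 1833 in the difference between preparations by genotype. They moved the 4861 calls between knockout preparations to 9809 and 8548. With no filter the saline cells gave 10 calls and the difference between preparations 6. Leaving out a library gave 0 to 222 calls in place of 84, 1 to 1954 in place of 265, and at most 5 where 0 were called. With equal sums outside the mitochondrial chromosome the 84 and the 265 calls of the mean response became 0 and 0, and without the 3 libraries 1 and 1. The 265 became 470 with equal sums over all genes, 112 with quantile normalisation and 125 with no filter, and the 84 became 2 with quantile normalisation, 2 with the compared groups alone and 129 at an FPKM of 5. At that filter the preparations gave 3944 and 2779 calls under the wild-type and the knockout label.

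Of the named values 26 turned with equal sums over all genes, 23 per assigned reads and 7 with equal sums outside the mitochondrial chromosome, and 0 of these turned relative to the median of all genes. The last count is no further test, because these scalings multiply all genes of a library by the same factor and so move the median almost alike. With the first and the second of these in that order, the log2 differences were as follows. In knockout cells against hearts they were Ftl1 -0.73 and -0.13, Gpx7 -0.76 and -0.24, with Txnip at -0.35 under the first. In wild-type cells against hearts they were Gpx7 -0.93 and -0.36, Hmox1 -0.80 and -0.28, with Ftl1 at -0.62 and Gpx1 at -0.52 under the first. In knockout against wild-type isoproterenol cells they were Ftl1 0.33 and 0.18, Gpx3 0.22 and 0.068, Hmox1 0.53 and 0.38, Mgst1 0.20 and 0.054. In saline cells they were Glrx3 -0.60 and -0.40, Gpx4 -0.26 and -0.060, Mt1 -0.29 and -0.095, Nqo1 -0.30 and -0.13, Sod3 -0.68 and -0.48. After isoproterenol they were Gpx3 -0.34 and -0.11, Gpx7 -0.42 and -0.21, Prdx4 -0.62 and -0.40, Sod3 -0.58 and -0.35 in wild-type cells and Hmox1 0.29 and 0.18 in knockout cells. In the interaction they were Gpx3 1.04 and 0.69, Gpx7 1.34 and 0.99, Gstm1 1.44 and 1.09, Hmox1 1.41 and 1.06, Sod3 1.27 and 0.92. With equal sums outside the mitochondrial chromosome Hmox1 was 0.028 (knockout against wild-type, isoproterenol), Sod3 -0.063 (saline) and Prdx4 -0.049 (wild-type response), and in the interaction Gpx7 was 0.23, Gstm1 0.18, Hmox1 0.34 and Sod3 0.081. Without the 3 libraries the knockout response of Gpx4 was -0.11. Beyond the change of scale or of libraries, the cause was not tested. No paired analysis was possible because the columns carry no replicate number.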
